A study of Drosophila melanogaster with 6 samples.

Results

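Neprilysins are zinc metallopeptidases that cut short peptides, most of them anchored in the cell membrane with the catalytic part outside the cell. The Drosophila genome holds a large family of them. Genes named Nep are the closer relatives of mammalian neprilysin and genes named Nepl are neprilysin-like. In animals the family is known for ending the action of peptide hormones and neuropeptides. Meltrin belongs to another family of zinc metalloproteases, the ADAMs, membrane proteins with a disintegrin and a metalloprotease domain. ADAM proteases are known for releasing the outer parts of membrane proteins, a step in several signalling pathways.

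The genes described here are the neprilysins, taken as all genes whose current symbol is Nep or Nepl with a number, and Meltrin. They were selected on measured values: Nepl21 and Meltrin had some of the largest ratios between the cell lines in an earlier look at these arrays. The ratios of the 6 genes between the lines are therefore given as a description and carry no test. Of 26 annotated neprilysin genes, 6 had a clone under a single symbol on the arrays and 5 of these had values on all 6 arrays: Nep4, Nep5, Nepl3, Nepl8 and Nepl21. With Meltrin this made 6 genes of 2216 named genes that could be measured, each represented by 1 cDNA clone printed as 2 spots. The 7th gene with a clone, Nepl9, lacked values on 1 array. Further members may lie among the 4985 features without a gene name here.

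The study compared SL2 with Kc167, established Drosophila melanogaster cell lines that derive from embryos and resemble blood cells. The 6 arrays carried spotted cDNA clones, to which cDNA of SL2 and cDNA of Kc167 in different dyes bound in competition, so each spot gave a ratio of the lines and no level in either of them. On 3 flipped arrays SL2 carried Cy5 and Kc167 carried Cy3, and on 3 standard arrays Kc167 carried Cy5 and SL2 carried Cy3. Both lines were untreated and kept at 22 °C as dense cultures with gentamicin at 20 µg/mL. SL2 grew in CCM3 medium and Kc167 in a Schneider medium with 5% serum, so line and medium cannot be told apart. Arrays with the same replicate number were averaged over the orientations, a pairing by number alone, which gave n = 3. The labels do not say that the replicates came from separate cultures, so the spread between them may be technical.

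All ratios run as SL2 over Kc167 on a log2 scale. The direction is the likely one, because the titles name SL2 first, but the labels do not define it. A positive ratio is called the SL2 side and a negative one the Kc167 side, and a ratio defined the other way would turn every sign. A log base of 2 was assumed, since no label gives one. A ratio cannot tell fewer cells that express a gene from less RNA per cell.

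Of 16896 spots, 16710 to 16844 had a value on a flipped array and 15104 to 15885 on a standard array. Precision is limited by the small number of arrays. The flipped array of replicate 1 stood apart: across features its correlation with the standard arrays was 0.64 to 0.73, while that of the other flipped arrays was 0.78 to 0.83. Among markers of hemocytes, the fly's blood cells, Pxn (1.65 ± 0.10, SE) and NimC1 (0.80 ± 0.07) passed limma's test towards SL2, and Ppn (-1.14 ± 0.06) and Pvr (-0.43 ± 0.07) towards Kc167. These were the 4 of 11 listed hemocyte markers that were measured, and they do not show whether either line expresses a gene. The ratio of Pxn differed between the dye orientations, by -1.02 flipped minus standard (limma adjusted p = 0.019).

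The neprilysins did not share a direction. Nepl21, Nep5 and Nepl8 lay on the SL2 side, Nepl3 on the Kc167 side and Nep4 near 0, while Meltrin lay far on the SL2 side. Of the 6 genes, 5 passed limma's threshold of an adjusted p of 0.05, 4 of them towards SL2 and 1 towards Kc167. Of all 7201 features 60.2% passed, with 28.4% towards SL2 and 31.8% towards Kc167. Passing is common here, and since the choice of genes used this comparison nothing is read from the count. The median ratio of the 6 genes was 0.38, against -0.022 over all features. The median size of the ratio, sign left aside, was 0.56, against 0.25 over all features. The choice of Nepl21 and Meltrin for their large ratios bears on both medians, so nothing is read from them either.

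Nepl21, a neprilysin-like gene on arm 3R, had the largest ratio of the 6. Its log2 ratio was 1.96, 2.11 and 2.25 on the flipped arrays and 2.53, 2.32 and 2.30 on the standard arrays. All 6 arrays were on the SL2 side, and every standard array was above every flipped one. The mean over the replicates was 2.25 ± 0.03 (SD, n = 3), or 4.74-fold. Read as a natural logarithm, this mean would stand for 9.45-fold. Within an orientation the SD was larger, 0.15 on the flipped and 0.13 on the standard arrays. With replicate number the flipped values rose and the standard values fell, so averaging them made the SD of the replicates small. Among 2216 named genes Nepl21 had the 4th highest ratio, and on single arrays its place was between 3 and 11. The ratio thus stood near the top of the named genes on every array. The 2 spots of the clone differed by a median of 0.075 and by at most 0.19, against a median of 0.14 and a 95th percentile of 0.58 over all clones.

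Meltrin, the ADAM gene, also on arm 3R, followed Nepl21. Its log2 ratio was 1.06, 1.93 and 2.02 on the flipped arrays and 2.28, 2.37 and 2.45 on the standard arrays. All 6 arrays were on the SL2 side. The lowest value came from the flipped array of replicate 1, the array that stood apart. The mean was 2.02 ± 0.31 (SD, n = 3), or 4.05-fold, and 2.17 without that array. On a natural base it would stand for 7.53-fold. Meltrin had the 7th highest ratio among named genes. Its place was between 6 and 9 on 5 arrays and 72 on the flipped array of replicate 1. Its spots differed by a median of 0.14 and by at most 0.32. Nepl21 and Meltrin were the only 2 of the 6 with at least a 2-fold difference, both towards SL2. Of all features, 6.53% passed and reached that size, 2.99% towards SL2. Their replicate averages overlapped, from 2.21 to 2.28 for Nepl21 and from 1.67 to 2.24 for Meltrin, so the order of the pair is within their spread.

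**Figure D1:**
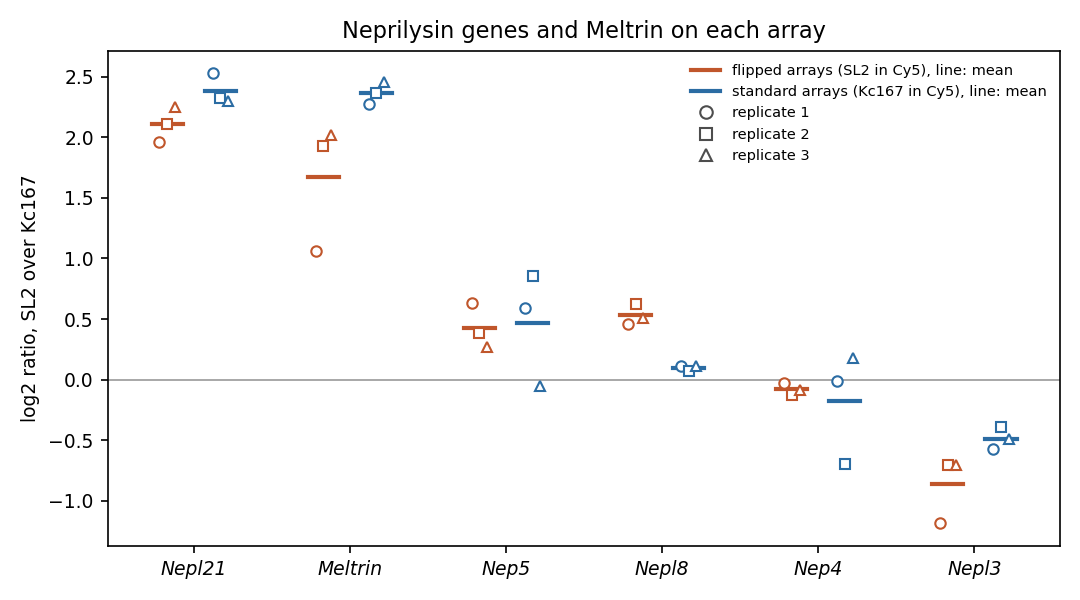
The vertical axis gives the log2 ratio of SL2 over Kc167, and the horizontal axis the 6 genes. Each point is 1 array, with the flipped arrays left of the standard arrays, marker shapes for the replicates and lines for the mean of 3 arrays. Nepl21 and Meltrin lie above 1 on every array, Nepl3 lies below 0 on every array, and the flipped array of replicate 1 is the lowest point of Meltrin at 1.06.

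Nep5, on arm 3R, had a small ratio that varied between arrays. It was 0.63, 0.39 and 0.27 on the flipped arrays and 0.59, 0.85 and -0.06 on the standard arrays. The standard array of replicate 3 was the only one at or below 0. The mean was 0.45 ± 0.29 (SD, n = 3), or 1.36-fold, and 0.62 without replicate 3. On that array both spots were near 0, at -0.02 and -0.09, so the low value did not come from 1 spot. Among named genes, 13.5% had a higher ratio.

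Nepl8, on arm 2L, had a ratio that differed between the dye orientations. The orientations are also separate sets of arrays, so dye and array set cannot be told apart. It was 0.46, 0.62 and 0.51 on the flipped arrays and 0.12, 0.07 and 0.11 on the standard arrays. All 6 values were above 0, yet the orientations did not overlap. The mean of the replicates was 0.31 ± 0.03 (SD, n = 3), or 1.24-fold. This small SD follows the averaging of each flipped with a standard array and leaves the gap between the orientations out. The 2 spots of the clone went apart on the standard array of replicate 3, with 0.36 and -0.14, and on that of replicate 2, with 0.18 and -0.04. At the 1st spot alone the orientations overlapped, with 0.27 on the flipped array of replicate 1 and 0.36 on the standard array of replicate 3. At the 2nd spot they did not overlap. Nepl8 and Nep5 overlapped in their replicate averages, which ran from 0.29 to 0.35 for Nepl8 and from 0.11 to 0.62 for Nep5.

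Nep4, a gene known in the fly from muscle and glia, had a ratio near 0. Its log2 ratio was -0.03, -0.12 and -0.09 on the flipped arrays and -0.01, -0.70 and 0.18 on the standard arrays. The 5 arrays other than the standard one of replicate 2 lay between -0.12 and 0.18. The values of the standard arrays of replicates 2 and 3 each rested on 1 spot, because the other spot had no value. The mean was -0.13 ± 0.25 (SD, n = 3) and 0.01 without replicate 2. This gene was the only one of the 6 that did not pass.

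Nepl3, on arm 2L, was the only one of the 6 that passed on the Kc167 side. Its log2 ratio was -1.19, -0.71 and -0.71 on the flipped arrays and -0.58, -0.39 and -0.49 on the standard arrays. All 6 arrays were below 0, and the flipped array of replicate 1 was the lowest. The mean was -0.68 ± 0.18 (SD, n = 3), a 1.60-fold difference, and -0.60 without that array. Only 172 of the 2216 named genes had a lower ratio. The replicate averages of Nepl3, from -0.88 to -0.55, did not overlap those of Nep4, from -0.41 to 0.05, and those of Nep4 did not overlap those of Nepl8. Single arrays did overlap. On the standard array of replicate 2 Nep4 had -0.70, below Nepl3 with -0.39. On the standard array of replicate 3 Nep4 had 0.18, above Nepl8 with 0.11. In all, 4 of the 6 genes had 1 sign on all 6 arrays, against 47.2% of all features. Nepl21 and Meltrin are among the 4 and were chosen for large ratios, so nothing is read from this count.

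**Figure D2:**
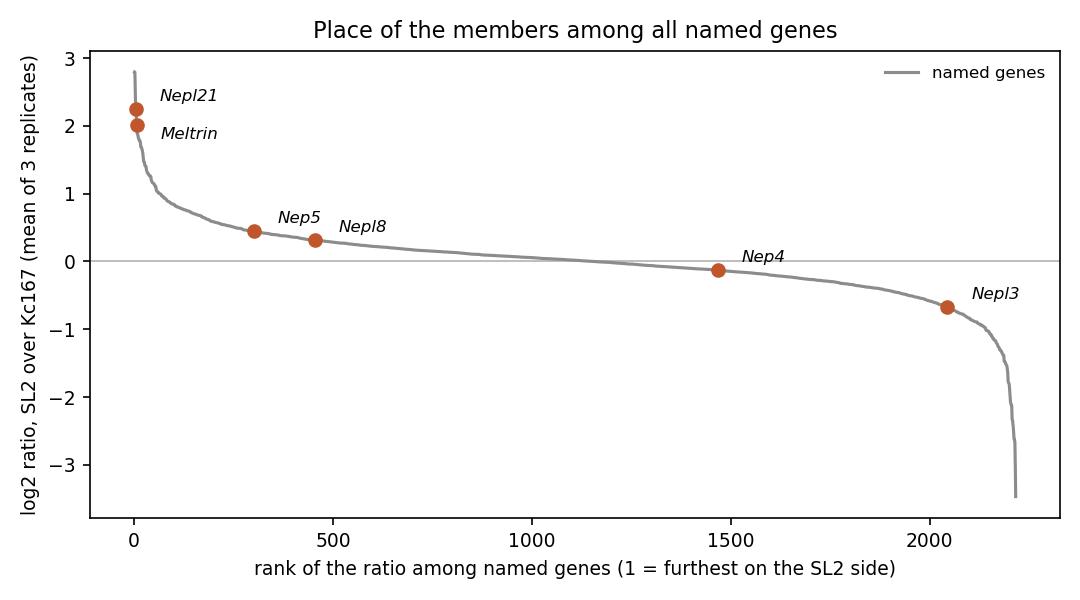
The grey line gives the log2 ratio of SL2 over Kc167, the mean of 3 replicates, for all 2216 named genes in order of their ratio, and the points mark the 6 genes. Nepl21 (place 4) and Meltrin (place 7) stand at the upper end, Nep5 and Nepl8 on the upper slope, and Nepl3 towards the lower end with 172 genes below it.

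Exchanging the dyes gives a comparison that was not used in choosing the genes. A ratio turned by cell line should not depend on which line carried Cy5. The choice of Nepl21 and Meltrin for large ratios can still bear on this comparison. Over all features, the upper end of the ratios lay higher on the standard than on the flipped arrays. In limma's fit on the 6 arrays, with no pairing of same-numbered arrays, Nepl8 alone of the 6 passed. Its ratio was 0.53 ± 0.08 on the flipped arrays and 0.10 ± 0.02 on the standard arrays (SD, n = 3 each), a difference of 0.43 ± 0.12 (SE; limma adjusted p = 0.039). Over all features 12.2% differed in this way, with 6.68% higher on the flipped and 5.5% higher on the standard arrays. Leaving out the flipped array of replicate 1 gave Nepl8 a difference of 0.47 with a limma adjusted p = 0.059. Without replicate 1, 2 or 3 it was 0.48, 0.37 and 0.45, with limma adjusted p-values of 0.093, 0.24 and 0.15. The call therefore did not hold when any one of these was left out, although the difference stayed of similar size.

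Meltrin averaged 1.67 ± 0.53 on the flipped arrays and 2.37 ± 0.09 on the standard arrays (SD, n = 3 each). Its difference of -0.70 ± 0.22 (SE) was the largest in size of the 6 and did not pass (limma adjusted p = 0.062, unadjusted p = 0.0091). Without the flipped array of replicate 1 it was -0.39 (limma adjusted p = 0.092). Nepl3 averaged -0.87 ± 0.28 on the flipped arrays and -0.49 ± 0.09 on the standard arrays, a difference of -0.38 ± 0.15 (limma adjusted p = 0.12), and of -0.22 without the flipped array of replicate 1 (limma adjusted p = 0.29). For Nepl21 the averages were 2.11 ± 0.15 on the flipped arrays and 2.39 ± 0.13 on the standard arrays, a difference of -0.28 ± 0.13 (limma adjusted p = 0.18). Quantile normalisation, which gives every array the same spread of values, turned the Nepl21 difference to 0.049. Under it the Meltrin difference was -0.49 (limma adjusted p = 0.22). Nep4 (0.10 ± 0.20) and Nep5 (-0.03 ± 0.21) had the smallest differences, and neither passed.

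The orientations did not overlap for 4 of the 6 genes, Nepl21, Meltrin, Nepl8 and Nepl3, against 36.1% of all features. The choice of Nepl21 and Meltrin for large ratios can bear on this count, so nothing is read from it. As a description, the difference between orientations was 12.4% of the ratio between the lines in size for Nepl21, 34.5% for Meltrin and 138% for Nepl8, where it was larger than the ratio itself. The first 2 shares follow in part from the choice of Nepl21 and Meltrin for their large ratios on these arrays.

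**Figure D3:**
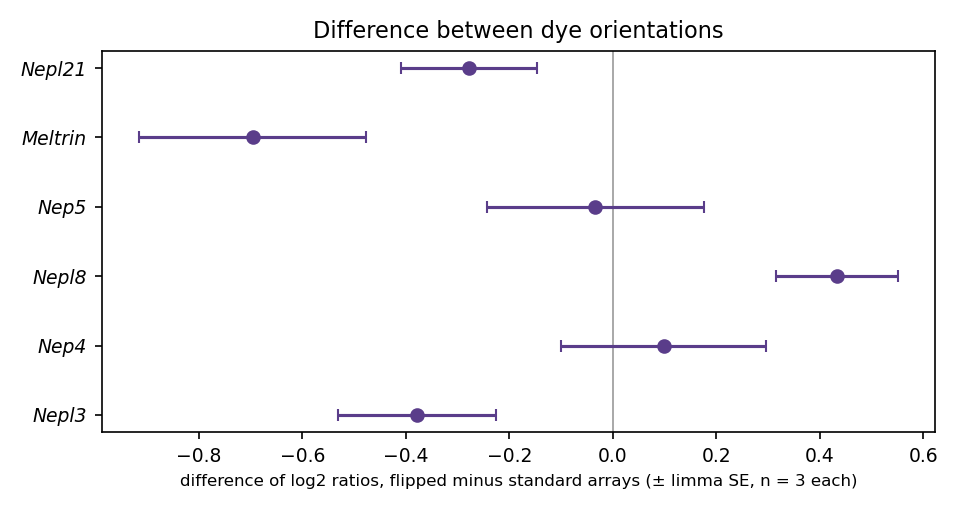
The horizontal axis gives the difference of log2 ratios, flipped minus standard arrays, and the bars are limma's SE (n = 3 arrays each). Nepl8 lies to the right of 0 at 0.43, Meltrin to the left at -0.70 with a wide bar, and Nep4 and Nep5 have bars that cross 0.

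In gene order on 3R, Nepl21 is the last of a run of neprilysin-like genes: its 4 nearest protein-coding neighbours on one side are Nepl20, Nepl19, Nepl18 and Nepl17. None of these was measured under a name here. Spotted cDNA can bind transcripts of close relatives, and whether transcripts of this run also bound to the Nepl21 spots was not tested. Of the 10 nearest protein-coding neighbours of Nepl21, 2 were measured. Doa, which encodes a protein kinase, had 0.29 ± 0.07 (SE, n = 3; limma adjusted p = 0.0035), and DIP-gamma, an immunoglobulin superfamily gene, had 0.07 ± 0.09 and did not pass. Of the 10 neighbours of Meltrin, BigH1, a linker histone gene, had -0.03 ± 0.08 and CG7530 had 0.08 ± 0.07, and neither passed. No measured neighbour came near the ratio of Nepl21 or Meltrin. Since both were chosen for large ratios, which few genes reach, and only 2 neighbours of each were measured, nothing is read from this.

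Genes most like each of the pair were found by the root mean square difference of the log2 ratios over the 6 arrays, as a description. Nearest to Nepl21 was regucalcin, a gene named for a calcium-binding protein, with a root mean square difference of 0.17. CG3457 followed with 0.36, and Meltrin itself was the 3rd with 0.40. Nearest to Meltrin were CG4822 and CG4199, both with 0.30, and regucalcin with 0.40. CG4822 and CG4199 shared its low value on the flipped array of replicate 1, both close to 1, while regucalcin had 2.01 there. All genes share the 6 arrays, so likeness over them includes shared array effects. Counted from Meltrin, Nepl21 was the 5th, also with 0.40. Both were chosen for large ratios, which few named genes reach, so their closeness follows in part from the choice.

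Genes from related lists were compared between the lines in the same way. The lists were drawn up with earlier results of these data known. Their counts, median and p-values are therefore given as a description. From lists of ADAM-type and other metalloproteases, peptidases, ADAM substrates and partners, peptide hormones, and other proteases and serpins, 15 genes were measured. Of these, 1 passed towards SL2 and 8 towards Kc167, and 6 did not pass. The share that passed, 60.0%, was near the 60.2% of all features, of which 28.4% passed towards SL2 and 31.8% towards Kc167. Their median ratio was -0.23, against -0.022 over all features.

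Among relatives of the ADAMs, 2 of 8 listed genes were measured. Ppn encodes papilin, an extracellular matrix protein related to ADAMTS proteases. Its ratio was -1.16, -1.26 and -1.20 on the flipped arrays and -1.10, -1.03 and -1.07 on the standard arrays. The arrays lay close together, all on the Kc167 side, with a mean of -1.14 ± 0.06 (SE, n = 3; 2.20-fold; limma adjusted p = 3.7e-07). AdamTS-A, a secreted metalloprotease gene, had -0.26 ± 0.11 and did not pass (limma adjusted p = 0.058). The same value passed when the 6 arrays were fitted with an orientation term in place of the averages (limma adjusted p = 0.040). Without the flipped array of replicate 1 it had -0.36 (limma adjusted p = 0.0085), and without replicate 1 -0.45 (limma adjusted p = 0.0019). None of the 14 listed matrix metalloproteases, angiotensin-converting-enzyme-like peptidases and their kin was measured under a name, and none of 12 genes of intramembrane cleavage.

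Of peptidases that act on peptides in other ways, 3 of 22 listed genes were measured. Psa, which encodes a puromycin-sensitive aminopeptidase, had the most negative ratio of the 15 genes. It was -1.86, -1.61 and -1.35 on the flipped arrays and -1.51, -1.38 and -1.25 on the standard arrays. With all 6 arrays on the Kc167 side, the mean was -1.49 ± 0.08 (SE, n = 3; 2.82-fold; limma adjusted p = 3e-07). Pal1, which encodes an enzyme of peptide amidation, had -0.21 ± 0.07 (limma adjusted p = 0.016), but its ratio differed between the orientations and was 0.078 on the standard arrays alone. It did not pass without replicate 2 (limma adjusted p = 0.056) or without replicate 3 (limma adjusted p = 0.10). S-Lap7, a sperm leucyl aminopeptidase gene, had -0.04 ± 0.07 and did not pass.

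Among ADAM substrates and partners, 3 of 17 were measured. Tsp86D, a tetraspanin gene known for bringing the ADAM protease Kuzbanian to the cell surface, was on the Kc167 side. Its ratio was -0.64, -0.75 and -1.09 on the flipped arrays and -1.37, -0.88 and -0.84 on the standard arrays, with a mean of -0.93 ± 0.07 (SE, n = 3; limma adjusted p = 2.4e-06). All 6 arrays were below 0 and the orientations overlapped. The TNF receptor gene grnd (0.12 ± 0.07) and the claudin gene sinu (-0.04 ± 0.07) did not pass. Neither did the only 2 of 23 peptide hormone genes that were measured, sNPF (0.12 ± 0.06) and Mip (0.11 ± 0.07).

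Of 84 symbols matched by a pattern for serine, cysteine and aspartic proteases and serpins, 5 were measured. All 5 passed, in a series where 60.2% of all features did. A match of the symbol does not show what a gene encodes. Spn42Dc, a serpin gene, had -0.42 ± 0.07, cathD, the gene of the lysosomal protease cathepsin D, had -0.39 ± 0.07, SP1173 had -0.27 ± 0.08, and Spn27A, a serpin gene of the immune response, had -0.23 ± 0.07. On the flipped arrays alone Spn42Dc had -0.22 and did not pass (limma adjusted p = 0.081), against -0.63 on the standard arrays alone, and it had -0.26 with features with missing values kept. SP1173 did not pass without replicate 1 (limma adjusted p = 0.068) or replicate 2 (limma adjusted p = 0.08), and Spn27A did not without replicate 3 (limma adjusted p = 0.14). On the SL2 side was Spn with 0.81 ± 0.07 (limma adjusted p = 1e-05). Its ratio was 0.45 on the flipped arrays alone and 1.17 on the standard arrays alone. The orientations differed for it (limma adjusted p = 0.030). Spn encodes spinophilin, a scaffold protein and no serpin, and entered the list through its symbol.

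**Figure D4:**
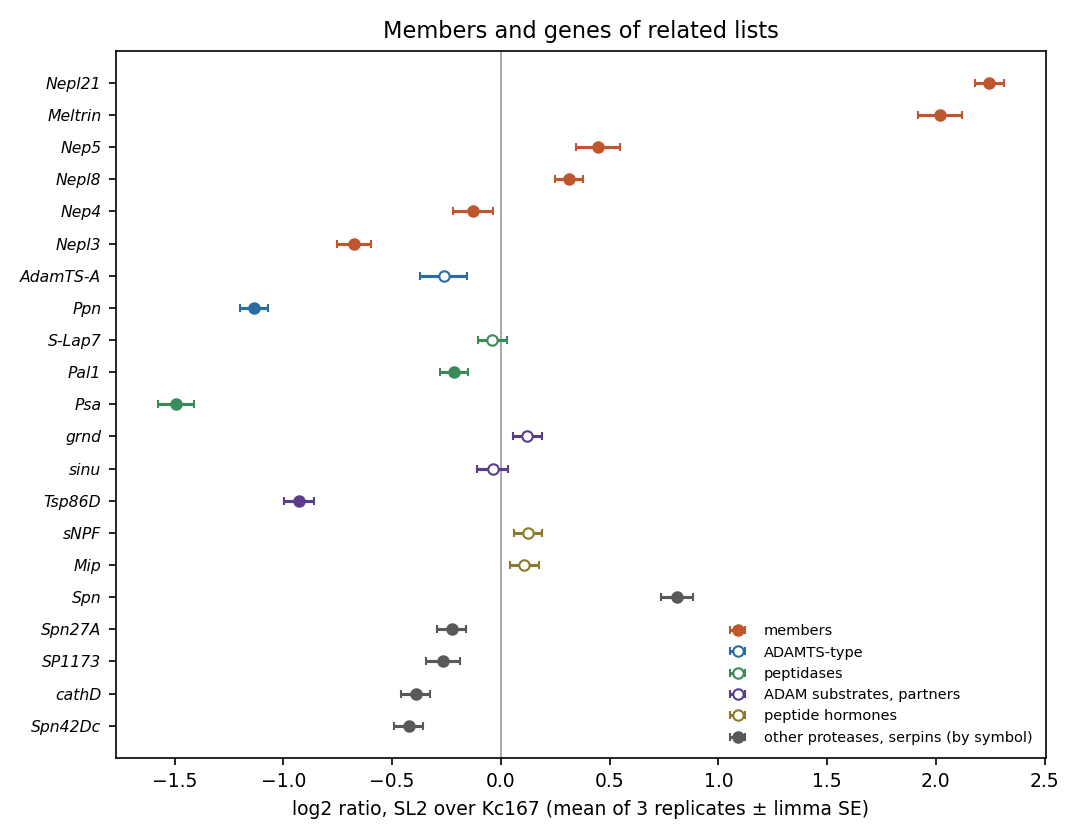
The horizontal axis gives the log2 ratio of SL2 over Kc167, the mean of 3 replicates with limma's SE, for the 6 genes (top) and 15 genes of related lists. Filled points below the 6 genes passed limma's adjusted threshold and open points did not. Nepl21 and Meltrin stand apart at the right, while Psa (-1.49), Ppn (-1.14) and Tsp86D (-0.93) lie furthest to the left.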

How the data were processed

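Each deposited value is a spot's log ratio, read here as log2; the authors computed it after a normalisation, per the labels. How they normalised, the log base and the direction are not given in the sources. Per the labels, spots were quantified with no background subtraction, and intensities were not used here. All 5666 spots with 1 symbol matched current symbols by Entrez identifier (RefSeq, Release 6 plus ISO1 MT), used for names, arms and gene order alone; 152 spots had several symbols and 11078 none. Spots of a clone, then clones of a gene, were averaged, and 7201 features had values on all 6 arrays.

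Same-numbered arrays were averaged and their mean was tested against 0 with limma 3.58.1 (R 4.3.3) in two-sided form, adjusted by Benjamini-Hochberg over all features, at a threshold of 0.05. Orientations were compared with limma on 6 arrays. In a check of pairing, deviations of same-numbered arrays from their orientation's mean had correlations of -0.07, 0.11 and -0.10. Both fits were tested on simulated data. SE is limma's. The genes and lists were chosen with earlier results of these data known. From each list up to 4 genes that passed with the largest ratios are named; Spn27A and genes that did not pass were named after their values were seen. Listed symbols were matched through synonyms, except Lap, whose only match is another gene. Alternatives covered the arrays used, normalisation, clones, missing values, variance model and replicates. The settings without the flipped array of replicate 1, and the reading as natural logarithms, were added after the data had been seen.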

Additional observations from a re-analysis of the deposited data

Results flagged for a closer look

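The ratio of Nepl8 differed between the dye orientations, with 0.43 higher on the flipped than on the standard arrays by limma's adjusted p. The ratios of 2 genes of the related lists also differed between orientations by that test, Pal1 with a difference of -0.59 (limma adjusted p = 0.017) and Spn with -0.72 (limma adjusted p = 0.030), flipped minus standard.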

How the results depend on the processing

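Over 15 alternatives to the ratios between the lines, no member that passed changed sign, and 81 of 90 alternative values of the 6 genes stayed within 1 SD of the replicates. Some alternatives could not move the ratios of these genes: the orientation term, the replicate block, single clones, missing values kept and the variance models. They changed only the SE or the set of features, so the count overstates how far stability was tried. Nepl21 had 2.11 on the flipped arrays alone, 2.39 on the standard arrays alone and 2.28 without the flipped array of replicate 1. Meltrin had 1.67 on the flipped and 2.37 on the standard arrays alone. Leaving out 1 replicate gave 2.23 to 2.26 for Nepl21 and 1.91 to 2.19 for Meltrin. The narrow range of Nepl21 follows the averaging of each flipped with a standard array. With no pooling of variance, 938 features passed towards SL2 and 988 towards Kc167, and 5 related genes towards Kc167, a count also found with the standard arrays alone. The replicate numbers did not pair the arrays by the check of deviations. With a term for the orientation and a replicate block, 2010 features passed towards SL2 and 2267 towards Kc167. For the orientation difference under the replicate block, 407 features were higher on the flipped and 274 on the standard arrays, against 481 and 396 without it, and Meltrin passed (-0.70; limma adjusted p = 0.041) while Nepl8 did not (0.43; limma adjusted p = 0.069), so which of the 2 passed depended on the block. Between the lines, AdamTS-A passed with the block (-0.26; limma adjusted p = 0.0065). Without the flipped array of replicate 1, these counts were 202 and 94, and without 1 replicate 34 to 206 and 15 to 62, where fewer arrays were fitted. The orientation difference turned its sign for Nepl21 under quantile normalisation (0.049), and without replicate 2 for Nep5 and Nep4, which ran from -0.21 to 0.18 and from -0.14 to 0.28 as each replicate was left out. Ratios of related genes turned for Pal1 (0.078) and sinu (0.052) on the standard arrays alone and for sNPF on the flipped arrays alone (-0.01). The cause of these changes was not tested. Without intensities, signal over background is not known.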

Other observations

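Nepl9, the neprilysin-like gene without a value on the standard array of replicate 2, had log2 ratios of 0.35, 0.21 and 0.42 on the flipped arrays, against -0.15 and -0.56 on the standard arrays of replicates 1 and 3. As averages of the spots, the flipped arrays were thus on the SL2 side and these standard arrays on the Kc167 side. On the standard array of replicate 1 the 2 spots differed in sign, with 0.03 and -0.34. The value of the standard array of replicate 3 rested on 1 spot, and the 2 spots of this clone differed by a median of 0.39, against 0.14 over all clones.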
